A study of Mus musculus with 104 samples.

Results

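The 10 genes described here act at the step where sister chromatids separate in mitosis: Pttg1, Espl1, Cdc20, Ccnb1, Ccnb2, Bub1, Bub1b, Mad2l1, Aurka and Plk1. They are 10 of the 22593 genes listed in the RNA table of embryos lacking Tet1 and Tet2. Pttg1 was chosen because its RNA was lower in those embryos, so its values in these samples are given as a description with no test. The other 9 genes were chosen for their role as its partners, and the question was whether they moved with it. All 10 passed the filter on low values in every comparison.

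Securin, the product of Pttg1, binds and holds back separase, the protease encoded by Espl1 that cuts the cohesin ring holding sister chromatids together. The anaphase-promoting complex with its activator CDC20 marks securin and cyclin B for destruction, and the spindle checkpoint proteins MAD2, BUBR1 and BUB1 delay this until every chromosome is attached. RNAs of many of these proteins peak late in the cell cycle, so in dividing embryonic tissue they are often measured as a group.

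RNA was measured with Smart-seq2, a method for small amounts of RNA, in epiblasts of embryonic day 6.5 (E6.5) and in heads of E8.5 and E9.5 mouse embryos. The first set held 2 heads and 2 epiblast samples of genotype Tet1-/-;Tet2-/- (Tet1/2 DKO), which lack a pair of enzymes that oxidize 5-methylcytosine, beside 2 wild-type (WT) heads and 3 WT epiblast samples. The second set held Kmt2b-/- (Kmt2b KO) samples, which lack a methyltransferase of lysine 4 of histone H3: 3 epiblast samples at E6.5, 2 heads at E8.5 and 1 head at E9.5, beside 3 WT samples at each stage. The series design names matings of DBA2 males with C57BL/6N females, and how the mutant alleles were made is not given in the sources used here. In the Tet1/2 table the names of the 3 columns of WT epiblasts give stage, genotype and replicate but no sample set. They were matched to the Kmt2b-set WT samples, the only WT epiblast RNA samples of the series, and are treated as such throughout. By this match genotype and sample set cannot be told apart at E6.5. In the Kmt2b table each group is 1 merged column. Since no label ties replicates to separate embryos or litters, the p-values cover the spread between these libraries, which may be technical. RNA levels are FPKM, a read measure divided by transcript length and library size, which are per length and can be compared between genes, and the read depth behind them is unknown.

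Of the deleted genes, Tet1 had 1.28 and 1.30 FPKM in DKO heads, against 2.55 and 3.33 FPKM in WT heads, and 3.82 and 2.92 FPKM in DKO epiblasts, against 4.77, 6.29 and 5.03 FPKM in WT epiblasts. Tet2 was under 0.5 FPKM in all 9 libraries. Kmt2b, listed under its older symbol Wbp7, had 0.308 FPKM in KO and 0.701 in WT at E6.5, 0.133 in KO and 0.600 in WT at E8.5, and 0.0349 in KO and 1.20 in WT at E9.5. Some reads of a partly deleted gene can still be counted, so these levels check the labels weakly. Among cell type markers, the 5 neural progenitor markers summed to 121 and 124 FPKM in DKO heads, against 148 and 108 in WT heads, and the 5 epiblast markers to 2462 and 2337 FPKM in DKO epiblasts, against 1421, 1453 and 1380 in WT epiblasts. The 6 heart muscle markers summed to 8.05 and 4.89 FPKM in DKO heads, against 29.2 and 188 in WT heads, with 3 of the 6 at 1 FPKM or more in each DKO head, against 5 and 6 in the WT heads, and Tnnt2 and Tnni1 were listed at 0 in DKO head replicate 2. The 5 red cell markers summed to 376 and 4.93 FPKM in DKO heads, against 0.345 and 0.215 in WT heads, with 3 and 2 of the 5 at 1 FPKM or more in DKO heads, against 0 in both WT heads. Visceral endoderm markers summed to at most 2.95 FPKM in any of the 9 libraries.

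Promoter sequence was read for all 10 genes from RefSeq (GRCm38.p6), as the 250 bases before each gene's listed start. The windows of Pttg1, of the anaphase activator gene Cdc20 and of the cyclin genes Ccnb1 and Ccnb2 are shown. They were picked because the Pttg1 window, which lies inside the annotated span of the gene, lacks a motif that most partner windows hold. Capitals mark CCAAT, the box bound by NF-Y, and TTTGAA, a form of the cell cycle genes homology region, on either strand. All 4 windows lie on the minus strand and are printed 5′ to 3′. The Pttg1 window is chr11:43425982-43426231, that of Cdc20 is chr4:118437344-118437593, that of Ccnb1 is chr13:100786487-100786736 and that of Ccnb2 is chr9:70421555-70421804.
Pttg1: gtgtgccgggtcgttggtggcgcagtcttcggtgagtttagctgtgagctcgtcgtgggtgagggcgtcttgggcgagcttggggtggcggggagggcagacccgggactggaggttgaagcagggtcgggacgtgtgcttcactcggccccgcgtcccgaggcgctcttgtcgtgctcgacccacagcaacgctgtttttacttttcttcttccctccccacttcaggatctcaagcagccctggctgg
Cdc20: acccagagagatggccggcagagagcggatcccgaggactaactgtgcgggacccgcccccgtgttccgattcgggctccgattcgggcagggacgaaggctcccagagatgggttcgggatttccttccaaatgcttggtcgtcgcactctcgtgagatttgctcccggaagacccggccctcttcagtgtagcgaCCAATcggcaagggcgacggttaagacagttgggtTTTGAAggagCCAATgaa
Ccnb1: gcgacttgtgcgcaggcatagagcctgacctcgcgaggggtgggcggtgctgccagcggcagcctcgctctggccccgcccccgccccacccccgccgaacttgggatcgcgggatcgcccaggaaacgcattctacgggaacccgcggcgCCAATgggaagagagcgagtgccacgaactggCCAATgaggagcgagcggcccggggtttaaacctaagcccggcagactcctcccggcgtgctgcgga
Ccnb2: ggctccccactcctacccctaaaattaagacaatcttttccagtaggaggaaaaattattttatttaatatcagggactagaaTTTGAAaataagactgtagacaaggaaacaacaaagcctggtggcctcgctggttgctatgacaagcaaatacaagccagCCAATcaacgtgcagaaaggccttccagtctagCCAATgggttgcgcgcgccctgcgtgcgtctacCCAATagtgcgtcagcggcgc

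CCAAT was found in 8 of the 10 windows, all but those of Pttg1 and Mad2l1, against 34.5% of 27025 RefSeq promoters of the same length. TTTGAA was found in those of Espl1, Cdc20 and Ccnb2, 3 of 10, against 16.3% of all promoters. No CCAAT overlapped a TTTGAA. In Cdc20 the first bases of the CCAAT boxes stood 53 and 8 bases before the start, with TTTGAA at 18 between them. Ccnb2, a B-type cyclin gene, held 3 CCAAT boxes, at 87, 54 and 21 bases. In RefSeq the annotated span of Pttg1 reaches 1482 bases further upstream than the start used for its window. The whole window therefore lies inside that span and may lie inside a longer transcript. Bases before the start of such a transcript were not read, so the lack of CCAAT is one of this window only. The reach is 316 bases for Aurka, whose window also lies inside its span, and at most 39 for the others. A match describes the letters and is not a binding site.

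Pttg1 itself was the lowest in DKO heads and the highest in WT heads. It had 55.4 and 48.0 FPKM in DKO heads, against 289 and 298 FPKM in WT heads, which is 51.7 ± 5.29 and 293 ± 6.44 FPKM (SD, n = 2 each). In the epiblast it had 68.3 and 77.0 FPKM in the DKO samples, against 104, 153 and 125 FPKM in the WT samples (72.6 ± 6.16 and 127 ± 24.7 FPKM, SD, n = 2 and 3). No library of one group overlapped those of another, and the order of the groups from high to low was WT head, WT epiblast, DKO epiblast and DKO head. In bulk tissue, fewer cells holding an RNA and less RNA per cell cannot be told apart.

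The log2 difference of Pttg1 (FPKM plus 1, DKO minus WT) was −2.48 in heads, the 26th largest of 10866 genes by size, and −0.79 in epiblasts. In WT, where heads and epiblasts are of different sample sets, its head level was above its epiblast level by a log2 difference of 1.21. Between DKO heads and DKO epiblasts the difference was −0.48. Among the 10 genes Pttg1 ranked 8 in both DKO heads and 2 in both WT heads. Its share of the summed FPKM of the 10 was 4.95% and 4.23% in DKO heads, against 19.4% and 20.2% in WT heads. The sum of the other 9 genes was 1066 and 1087 FPKM in DKO heads, against 1202 and 1178 in WT heads, so that sum too was lower in both DKO heads, by far less than Pttg1.

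**Figure D1:**
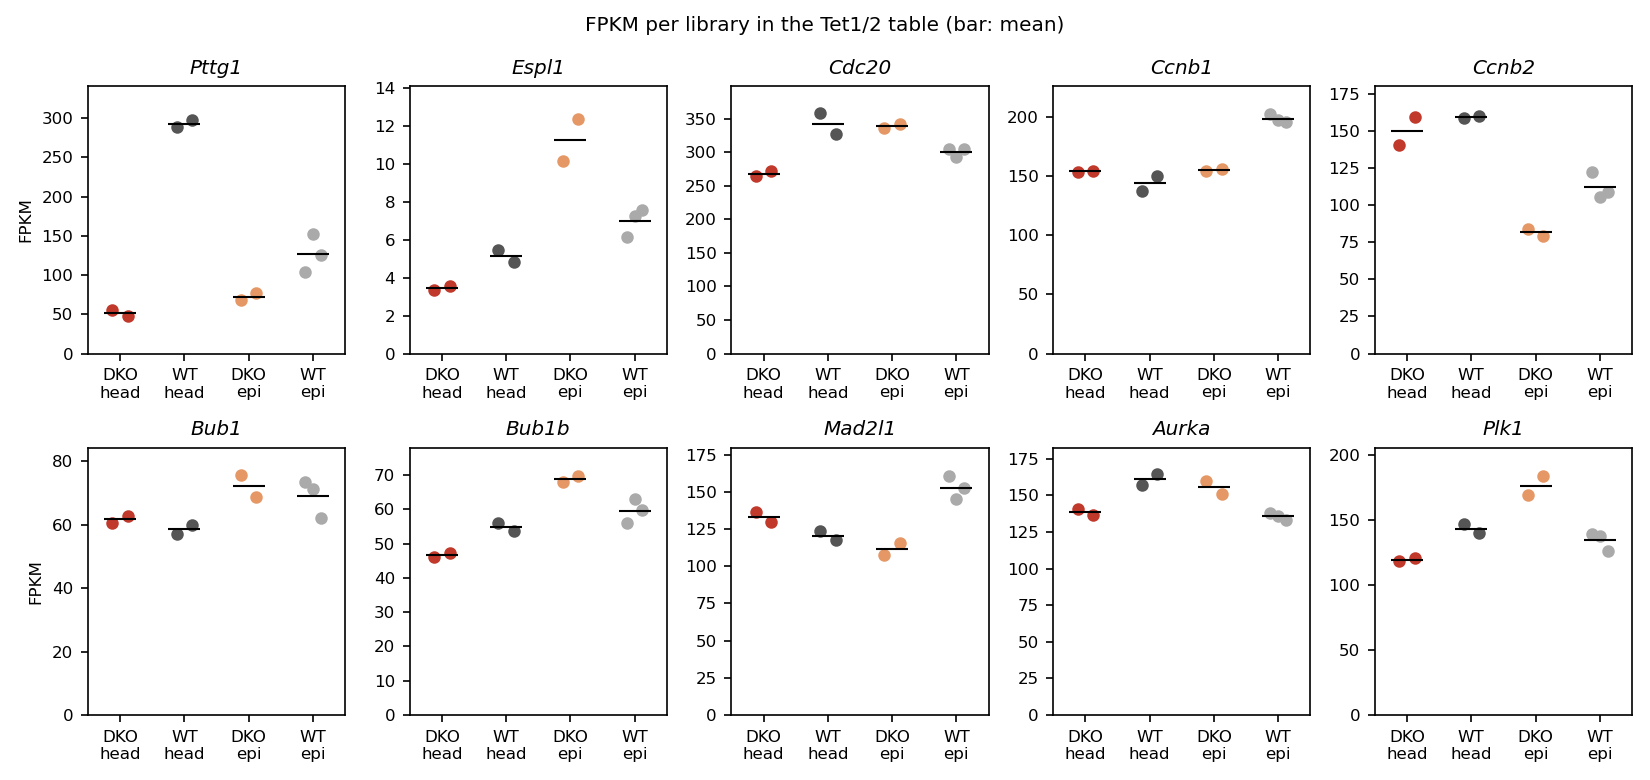
FPKM of the 10 genes in each of the 9 libraries of the Tet1/2 table (points; epi, epiblast), with group means as bars. Pttg1 stands at 48.0 and 55.4 FPKM in DKO heads, against 289 and 298 in WT heads, while no other gene separates the heads by so much.

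In heads, none of the 9 partners passed the test for DKO against WT. The test was limma on log2 of FPKM plus 1, with p-values adjusted by Benjamini-Hochberg over 10866 genes and a threshold of 0.05, and it called 0.433% of all genes (47 genes, 0.175% lower and 0.258% higher). That number was 3 and 8 without DKO head replicate 1 or 2, and 7 and 10 without WT head replicate 1 or 2. It was 160 with all 9 libraries and 284 with the head libraries alone. In each of these fits 0 partners passed. At an unadjusted p under 0.05, 5 partners were called, all lower (Espl1, Cdc20, Bub1b, Aurka and Plk1), against 9.75% of all genes lower and 7.1% higher. The same 5 partners had both DKO heads below both WT heads, against 32.0% of all genes, and Ccnb1, Bub1 and Mad2l1 had both above, against 28.4%. The 95% intervals of the 9 log2 differences ran from −0.87 to 0.34 at their outermost. None reached the difference of Pttg1, which is a description, since Pttg1 was chosen for its lower level in these samples.

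Separase RNA was the scarcest of the set. Espl1 had 3.36 and 3.59 FPKM in DKO heads, against 5.46 and 4.84 FPKM in WT heads, a log2 difference of −0.46 (SE 0.17, limma adjusted p = 0.258). The DKO heads did not overlap the WT heads. FPKM of Pttg1 over that of Espl1, the inhibitor over its target, was 16.5 and 13.4 in DKO heads, against 52.9 and 61.5 in WT heads. In epiblasts it was 6.73 and 6.21 in the DKO samples, against 16.9, 21.0 and 16.6 in the WT samples. Because Pttg1 was chosen for its lower level in these DKO samples, the lower ratio is a description and no separate result.

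Cdc20, the activator that brings securin to the anaphase-promoting complex, was the most abundant of the 10 in all 9 libraries. It had 265 and 272 FPKM in DKO heads, against 358 and 327 FPKM in WT heads (log2 difference −0.35, SE 0.07, limma adjusted p = 0.118). The groups did not overlap. Of the B-type cyclins, which are destroyed together with securin, Ccnb1 had 154 and 154 FPKM in DKO heads, against 138 and 150 FPKM in WT heads (0.10, limma adjusted p = 0.542). Ccnb2 had 141 and 160 FPKM in DKO heads, against 159 and 160.1 FPKM in WT heads (−0.09, limma adjusted p = 0.659), and its groups overlapped. Both cyclin genes have pseudogenes listed in RefSeq, so their values are uncertain where reads were shared.

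The spindle checkpoint genes differed from WT by small amounts in both directions, none past the test. Bub1, a kinase that recruits checkpoint proteins to kinetochores, had 60.6 and 62.7 FPKM in DKO heads, against 57.1 and 60.0 FPKM in WT heads (log2 difference 0.07, limma adjusted p = 0.723). Bub1b, which encodes the checkpoint protein BUBR1, had 46.2 and 47.3 FPKM in DKO heads, against 56.1 and 53.9 FPKM in WT heads (−0.23, limma adjusted p = 0.258). Mad2l1, which encodes the CDC20 inhibitor MAD2, had 137 and 130.1 FPKM in DKO heads, against 124 and 118 FPKM in WT heads (0.14, limma adjusted p = 0.423). Bub1 and Mad2l1 were above WT in both DKO heads and Bub1b below it in both, without overlap in any of the 3.

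Aurka and Plk1, which also encode mitotic kinases, had lower values in both DKO heads without passing the test. Aurka, which encodes the spindle pole kinase Aurora A, had 141 and 137 FPKM in DKO heads, against 158 and 165 FPKM in WT heads (log2 difference −0.21, limma adjusted p = 0.245). Plk1, whose kinase acts from mitotic entry to cytokinesis, had 118 and 121 FPKM in DKO heads, against 147 and 140 FPKM in WT heads (−0.26, limma adjusted p = 0.208). Neither gene's groups overlapped. For 8 of the 9 partners the direction in heads was the same in every alternative setting, and for Ccnb2 it reversed without DKO head replicate 1. Epiblast markers also differed between these heads, with sums of 39.8 and 48.4 FPKM in DKO heads, against 51.8 and 89.9 in WT heads, and 1 of the 5 at 1 FPKM or more in each DKO head, against 4 in each WT head. The 5 neuron markers summed to 59.4 and 66.8 FPKM in DKO heads, against 85.5 and 87.7 in WT heads. The part of these, and of the heart and red cell markers given above, in the values was not tested.

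**Figure D2:**
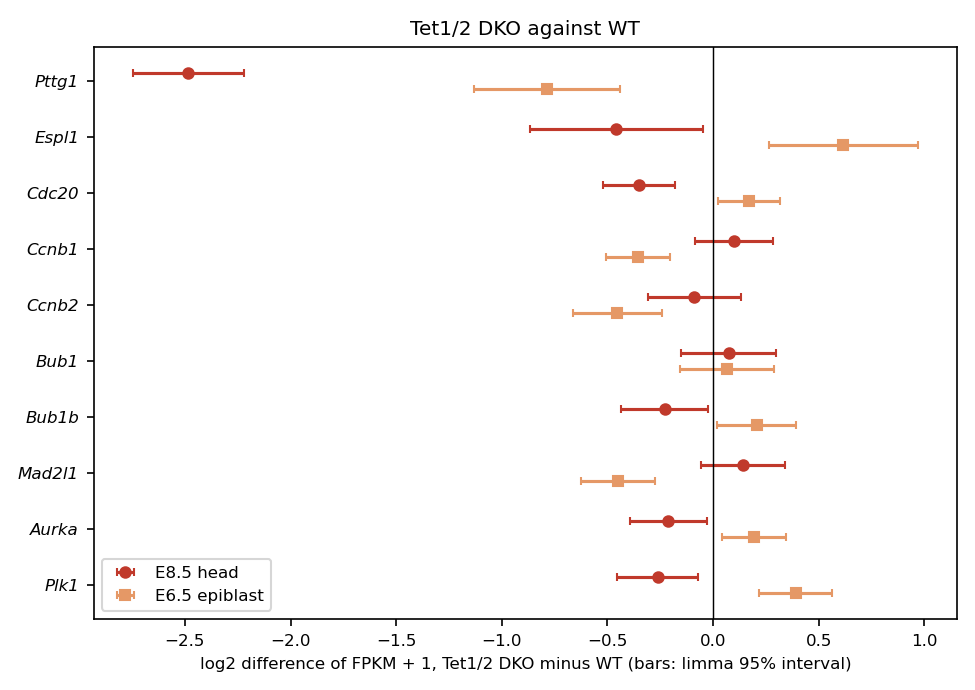
Log2 difference of FPKM plus 1 (x axis), Tet1/2 DKO minus WT, for the 10 genes (y axis) in E8.5 heads (circles) and E6.5 epiblasts (squares), with limma 95% intervals. Pttg1 is at −2.48 in heads and −0.79 in epiblasts, and the partners lie between −0.46 and 0.62 on both sides of 0. The intervals drawn for Pttg1 are no test, since the gene was chosen for its lower level in these samples.

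In the E6.5 epiblast, 5 of the 9 partners passed the test, 3 lower and 2 higher, where 35.2% of 11264 genes did (15.2% lower and 20.1% higher). Mad2l1, Ccnb1 and Ccnb2 fell in DKO epiblasts, and Plk1 and Espl1 rose. Cdc20, Bub1b and Aurka had all DKO values above all WT values without passing. Without overlap between the groups were 3 partners on the lower side and 5 on the higher, beside 24.2% and 31.8% of all genes, and Bub1 overlapped.

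Mad2l1 had 107 and 116 FPKM in DKO epiblasts, against 161, 145 and 153 FPKM in WT epiblasts (log2 difference −0.45, SE 0.08, limma adjusted p = 0.0037). Ccnb1 had 154 and 156 FPKM in DKO epiblasts, against 203, 198 and 196 FPKM in WT epiblasts (−0.35, SE 0.07, limma adjusted p = 0.0052). Ccnb2 had 84.2 and 79.5 FPKM in DKO epiblasts, against 123, 106 and 109 FPKM in WT epiblasts (−0.45, SE 0.09, limma adjusted p = 0.0070). In each of these genes every DKO value lay below every WT value, as for Pttg1.

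Plk1 had 169 and 184 FPKM in DKO epiblasts, against 139, 137 and 127 FPKM in WT epiblasts (log2 difference 0.39, SE 0.08, limma adjusted p = 0.0062). Espl1 had 10.1 and 12.4 FPKM in DKO epiblasts, against 6.14, 7.27 and 7.57 FPKM in WT epiblasts (0.62, SE 0.15, limma adjusted p = 0.0166). Both were higher without overlap. Espl1 was thus on the other side from Pttg1 here, which is a description, since Pttg1 was chosen for its lower level. In heads Espl1 was on the same side as Pttg1 (log2 difference −0.46, not past the test). The Espl1 call was lost without DKO epiblast replicate 2 (limma adjusted p = 0.0904) and in a fit of the epiblast libraries alone (0.0528).

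The remaining 4 differed less. Aurka had 160.1 and 151 FPKM in DKO epiblasts, against 138, 136 and 133 FPKM in WT epiblasts (log2 difference 0.19, limma adjusted p = 0.0526). Cdc20 had 336 and 342 FPKM in DKO epiblasts, against 305, 293 and 305 FPKM in WT epiblasts (0.17, limma adjusted p = 0.0688). Bub1b had 68.0 and 69.8 FPKM in DKO epiblasts, against 56.2, 62.9 and 59.8 FPKM in WT epiblasts (0.21, limma adjusted p = 0.0819). Bub1 had 75.7 and 68.7 FPKM in DKO epiblasts, against 73.6, 71.2 and 62.0 FPKM in WT epiblasts (0.07, limma adjusted p = 0.614), and it was the only one of the 10 whose groups overlapped here. The summed FPKM of the 5 epiblast markers was higher in the same DKO samples, as given above, but the markers did not all rise. With limma 2 of the 5 passed higher and 1 passed lower, at a log2 difference of −1.54. The part of these markers in the differences of the partners was not tested.

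The difference between DKO and WT itself differed between head and epiblast for 7 of the 9 partners, 5 lower in heads and 2 higher, where 26.4% of 11264 genes did (15.5% lower and 10.9% higher). Espl1 had the largest such value, a log2 difference of −1.07 (head minus epiblast, SE 0.23, limma adjusted p = 0.0126). Plk1 had −0.65 (0.0060), Cdc20 −0.52 (0.0072), Bub1b −0.43 (0.0326) and Aurka −0.40 (0.0205), with limma adjusted p in parentheses. Mad2l1 had 0.59 and Ccnb1 0.45 (limma adjusted p = 0.0088 and 0.0134). Ccnb2 (0.36, limma adjusted p = 0.0790) and Bub1 (0.01, limma adjusted p = 0.980) did not pass. In sign, the 5 partners were below WT in DKO heads and above it in DKO epiblasts, and the 2 were the reverse. None of these partners passed the test in heads, and Pttg1 was chosen for its lower level. The signs are thus a description and do not show that partners moved with Pttg1. The count was 7 with all libraries, 3 without DKO head replicate 1 and 4 without DKO head replicate 2, and the WT epiblasts in it came from the other sample set.

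The same samples gave the course between stages. In WT embryos 4 of the 9 partners passed the test between E8.5 heads and E6.5 epiblasts, where 36.9% of genes did (17.1% lower and 19.9% higher in heads). This count lies near the background, so the genes named next are a description. WT heads and WT epiblasts are of different sample sets, so stage and sample set cannot be told apart. Ccnb2 (log2 difference 0.50, limma adjusted p = 0.0035) and Aurka (0.24, 0.0212) were higher in heads, and Ccnb1 (−0.46, 0.0011) and Mad2l1 (−0.34, 0.0100) lower. These differences lay between −0.46 and 0.50 on the log2 scale, and that of Pttg1 was 1.21.

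In DKO embryos 6 of the 9 partners passed between the same stages, 4 lower and 2 higher in heads, where 49.8% of genes did (26.1% lower and 23.7% higher). This count too is not far from the background. Espl1 was lower by the most (log2 difference −1.45, SE 0.17, limma adjusted p = 0.0003), followed by Plk1 (−0.56, 0.0010), Bub1b (−0.55, 0.0016) and Cdc20 (−0.34, 0.0048). Ccnb2 (0.87, limma adjusted p = 0.0003) and Mad2l1 (0.26, 0.0341) were higher. Ccnb1 over Ccnb2 in FPKM was 1.09 and 0.966 in DKO heads, against 1.83 and 1.96 in DKO epiblasts, and 0.868 and 0.936 in WT heads, against 1.65, 1.87 and 1.79 in WT epiblasts. The balance of the B-type cyclins therefore differed between heads and epiblasts in both genotypes, with head values of either genotype all below its epiblast values.

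Other mitotic genes came from lists made for the machinery around the 10. Of 68 such genes tested with limma, 0 passed in DKO heads against WT heads, where 0.433% of all genes did. At an unadjusted p under 0.05 there were 8 lower and 3 higher, beside 9.75% of all genes lower and 7.1% higher, so these counts lie near the background. Chromosomal passenger and kinesin genes held 4 of those lower, with a list median of −0.18 over 14 genes on the log2 scale. The lists of spindle checkpoint genes (14 genes), anaphase-promoting complex genes (16), cohesin genes (13) and mitotic entry genes (11) had medians of −0.11, −0.14, 0.02 and −0.01, beside −0.02 over all genes. With limma 0 of 14 S phase genes passed (3 lower and 3 higher at an unadjusted p under 0.05), and 0 of 9 genes of cell cycle arrest and G1 cyclins (1 lower and 0 higher at that p).

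In DKO epiblasts 22 of the 68 passed against WT epiblasts, 16 higher and 6 lower, beside the 20.1% and 15.2% of all genes given above. The total lies near the 35.2% of all genes that passed, so the genes named next are a description. Genotype and sample set cannot be told apart in this comparison. Among passenger and kinesin genes 5 rose and 1 fell, including Cdca8 (log2 difference 0.61) and Incenp (0.79), which encode parts of the Aurora B complex. Cohesin genes rose in 6 cases, among them Cdca5 (0.59), the cohesin protector sororin, and fell in 1, Sgol1 (−0.46), the shugoshin that guards centromeric cohesin. Of the anaphase-promoting complex genes, Anapc7 (0.70), Anapc2 (0.56) and its activator gene Fzr1 (0.53) rose and Anapc10 (−0.70) fell. In the checkpoint list Mad1l1 (0.96), the partner of MAD2, rose and the kinetochore gene Spc25 (−0.85) fell, and in the entry list Mybl2 (0.68) rose while Lin9 (−0.51) and Lin54 (−0.43), parts of the MuvB complex that its product joins, fell. S phase genes rose in 7 of 14 cases, with the replication helicase genes Mcm5 (0.88), Mcm2 (0.85) and Mcm3 (0.71) among them, and fell in 2, among them Pcna (−0.63), the polymerase clamp. Of 9 arrest and G1 genes, the D-type cyclin genes Ccnd2 (1.22), Ccnd1 (0.50) and Ccnd3 (limma adjusted p = 0.0004) rose, and Cdkn1b (−1.11), an inhibitor of cyclin-dependent kinases, fell. Each value named here passed with a limma adjusted p of 0.0441 or less.

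The difference between heads and epiblasts in the DKO effect passed for 18 of the 68 genes, 13 lower and 5 higher in heads, a total near the 26.4% of all genes that passed (15.5% lower and 10.9% higher). Passenger and kinesin genes held 7 of the lower ones and 0 of the higher ones, including Cdca8 (log2 −0.77, limma adjusted p = 0.0027), Top2a (−0.55, 0.0079) and Kif20a (−0.55, 0.0104). Between WT heads and WT epiblasts, which are of different sample sets, 33 of the 68 passed. Of these 25 were higher and 8 lower in heads, beside 19.9% of all genes higher and 17.1% lower. Between DKO heads and DKO epiblasts 33 passed, 16 higher and 17 lower, near the background of 23.7% higher and 26.1% lower.

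Genes with a pattern like that of Pttg1 were then looked for by the root mean square distance of centred log2 values over the 9 libraries, among 6785 genes with a mean of at least 5 FPKM. This is a description, since Pttg1 was chosen on the same values. The nearest were the histone gene Hist1h4i (distance 0.279), Cap1 (0.336), which encodes a regulator of actin filaments, Rbm45 (0.350), which encodes an RNA-binding protein, Gstcd (0.382) and the histone gene Hist1h2ac (0.391). Histone genes have near-identical copies, so their values are uncertain. Rbm45 had 4.31 and 6.70 FPKM in DKO heads, against 36.2 and 35.6 FPKM in WT heads, and 7.43 and 6.94 FPKM in DKO epiblasts, against 20.5, 22.6 and 21.7 FPKM in WT epiblasts. Cap1 had 15.8 and 19.2 FPKM in DKO heads, against 76.3 and 85.4 FPKM in WT heads.

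None of the 9 partners was near Pttg1 by this measure. The distance depends on the size of the changes as well as their direction. A gene that changes little is far from Pttg1 whichever way it moves, so the ranks do not show whether the partners moved with it. Cdc20 came closest, at rank 451 (distance 0.827), followed by Ccnb2 at 751, Aurka at 841, Bub1b at 1546, Plk1 at 1771, Mad2l1 at 2237, Ccnb1 at 2565 and Bub1 at 3368. Espl1 was the farthest of them, at rank 4751 (distance 1.03).

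**Figure D3:**
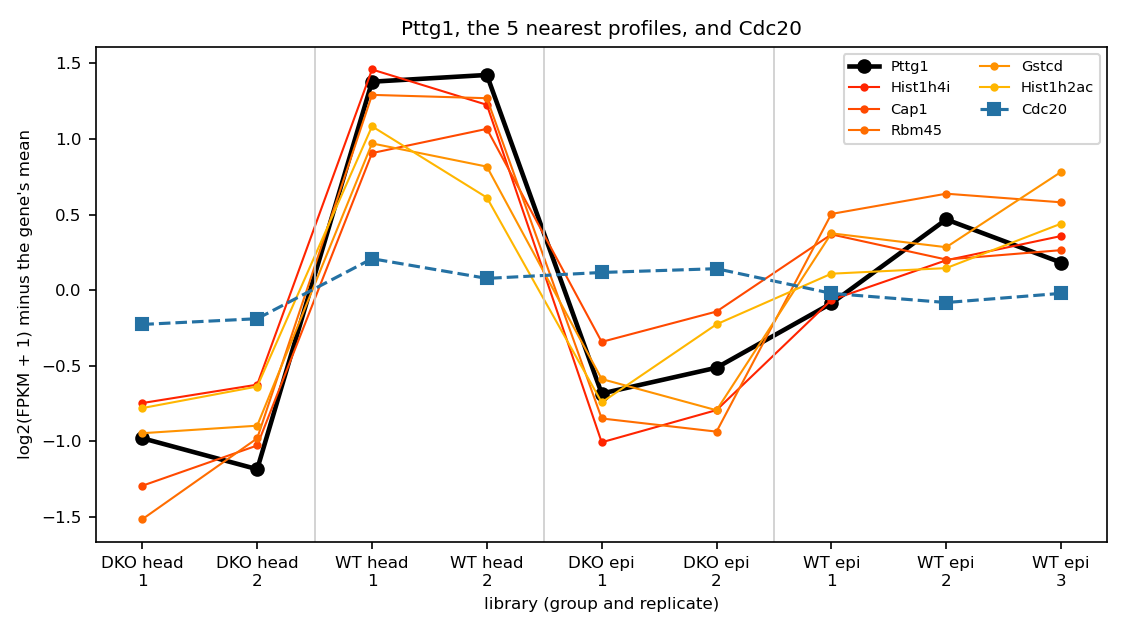
Log2 of FPKM plus 1, less each gene's mean (y axis), in the 9 libraries (x axis; epi, epiblast) for Pttg1 (black), the 5 genes nearest to it and Cdc20 (dashed). The 5 nearest genes, at distances of 0.279 to 0.391, are highest in WT heads as Pttg1 is, while Hist1h4i is higher in DKO heads than in DKO epiblasts, unlike Pttg1. Cdc20, at 0.827, stays near its mean.

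Neighbours of Pttg1 on chromosome 11 were taken by RefSeq order (GRCm38.p6), 4 on each side of its span of chr11:43420244-43427463. Only genes at 1 FPKM or more in 2 or more of the 9 libraries were used, so nearer genes may have been passed over. On one side the nearest of them, Ccng1, ends at chr11:40755309, and on the other Slu7 starts at chr11:43433726. The choice was made after the values of Pttg1 were seen. Mat2b, Hmmr, Nudcd2 and Ccng1 on one side and Slu7, Ccnjl, Pwwp2a and Ttc1 on the other had log2 differences of −0.07 to 0.39 between DKO and WT heads. With limma 0 of these 8 passed, and 2, Mat2b and Pwwp2a, both higher in DKO heads, had an unadjusted p under 0.05. Slu7, the next gene after Pttg1 that passed this filter, had means of 17.4 FPKM in DKO heads and 18.4 FPKM in WT heads.

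In embryos without Kmt2b, Pttg1 was lower in heads and close to WT in the epiblast. It had 126 FPKM in KO and 127 in WT at E6.5 (log2 difference −0.01), 101 in KO and 242 in WT at E8.5 (−1.25), and 154 in KO and 254 in WT at E9.5 (−0.72). Pttg1 was chosen for its level in the Tet1/2 DKO samples, though with earlier results of these data known. The WT heads are not those of the Tet1/2 set, while the WT epiblast column merges the samples to which the WT epiblasts of the Tet1/2 table were matched. At E8.5 the value stood at percentile 1.49 of 11073 genes, and it was −1.53 when set against the mean of the Tet1/2 set's WT heads, so the WT heads of the 2 sets differed too. With 1 merged column a group there is no test and no replicate check.

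At E8.5 0 of the 9 partners reached a 2-fold difference, beside 4.72% of all genes (2.51% lower and 2.21% higher). With so few genes this count is near the background, so the values below are a description. Bub1 had the largest E8.5 difference among them, with 78.4 FPKM in KO heads and 56.9 FPKM in WT heads (log2 difference 0.46). Next came Bub1b, with 59.0 FPKM in KO heads and 50.7 FPKM in WT heads (0.21). Plk1 (0.16) was above WT, and Cdc20 (−0.15), Mad2l1 (−0.14), Espl1 (−0.05), Ccnb2 (−0.04), Aurka (−0.04) and Ccnb1 (0.00) were below or at WT. Set against the mean of the Tet1/2 set's WT heads, Plk1 had −0.02 and Mad2l1 0.00. Pttg1 over Espl1 in FPKM was 19.4 in KO heads and 44.5 in WT heads, and Pttg1 ranked 7 of the 10 in KO heads and 2 in WT heads. The epiblast markers summed to 123 FPKM in these KO heads and 62.4 in WT heads, the neural progenitor markers to 79.2 in KO heads and 125 in WT heads, the neuron markers to 51.9 in KO heads and 75.2 in WT heads, and the red cell markers to 4.995 in KO heads and 98.1 in WT heads. The part of these markers in the values was not tested.

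At E6.5 0 of the 10 genes reached a 2-fold difference between KO and WT epiblasts, beside 1.7% of all genes (0.614% lower and 1.08% higher). In this comparison 8 of the 10 were below 0, beside 52.1% of all genes, with a median of −0.16 on the log2 scale beside −0.02 over all genes. Ccnb1 had 132 FPKM in KO epiblasts and 192 FPKM in WT epiblasts (−0.53). Aurka had 98.5 FPKM in KO epiblasts and 132 FPKM in WT epiblasts (−0.42), and Ccnb2 85.5 FPKM in KO epiblasts and 110.1 FPKM in WT epiblasts (−0.36). The separate WT epiblast libraries of the Tet1/2 table had SDs of 0.03, 0.03 and 0.11 on the log2 scale for these genes. These SDs cover no spread between KO samples, so they are no test of the differences. Espl1 (0.30) and Bub1b (0.03) were above WT.

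At E9.5 only Plk1 of the 10 passed 2-fold, beside 8.25% of all genes (3.57% lower and 4.69% higher), with 91.0 FPKM in the KO head and 41.0 FPKM in WT heads (log2 difference 1.13, 0.99 after quantile normalization of the columns). Cdc20 had 189 FPKM in the KO head and 118 FPKM in WT heads (0.68), and Aurka 150.02 FPKM in the KO head and 105 FPKM in WT heads (0.51). Mad2l1 (−0.36) and Ccnb1 (−0.28) were below WT with Pttg1. Ccnb2 was at 0.03, and at −0.13 after quantile normalization. Pttg1 was the most abundant of the 10 in WT heads at this stage and ranked 3 in the KO head. The E9.5 columns are not on the same scale as the others, the KO column is 1 sample whose column name has Em where its title says head, and the 6 heart muscle markers summed to 2405 FPKM in it, against 20.9 FPKM in WT heads. The 5 red cell markers summed to 5856 FPKM in it, against 15764 FPKM in WT heads. The 5 neuron markers summed to 38.5 FPKM in it, against 98.4 FPKM in WT heads, with Neurod1 listed at 0 in the KO head and 3 of the 5 at 1 FPKM or more, against 5 in WT heads. Among them Tubb3 had 14.1 FPKM in the KO head and 38.2 FPKM in WT heads, and Elavl4 2.37 FPKM in the KO head and 14.4 FPKM in WT heads. The part of these marker lists in the values was not tested.

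Of the 68 other mitotic genes, 0 reached 2-fold in Kmt2b KO at E6.5 or E8.5, and at E9.5 only Mad1l1 did, with 11.4 FPKM in the KO head and 4.78 FPKM in WT heads. Of the arrest and G1 genes, at E8.5 Cdkn1b had 5.16 FPKM in KO and 1.97 FPKM in WT (log2 difference 1.05), and Cdkn1a (1.42) and Ccnd3 (1.09) passed 2-fold at E9.5, higher in the KO head.

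**Figure D4:**
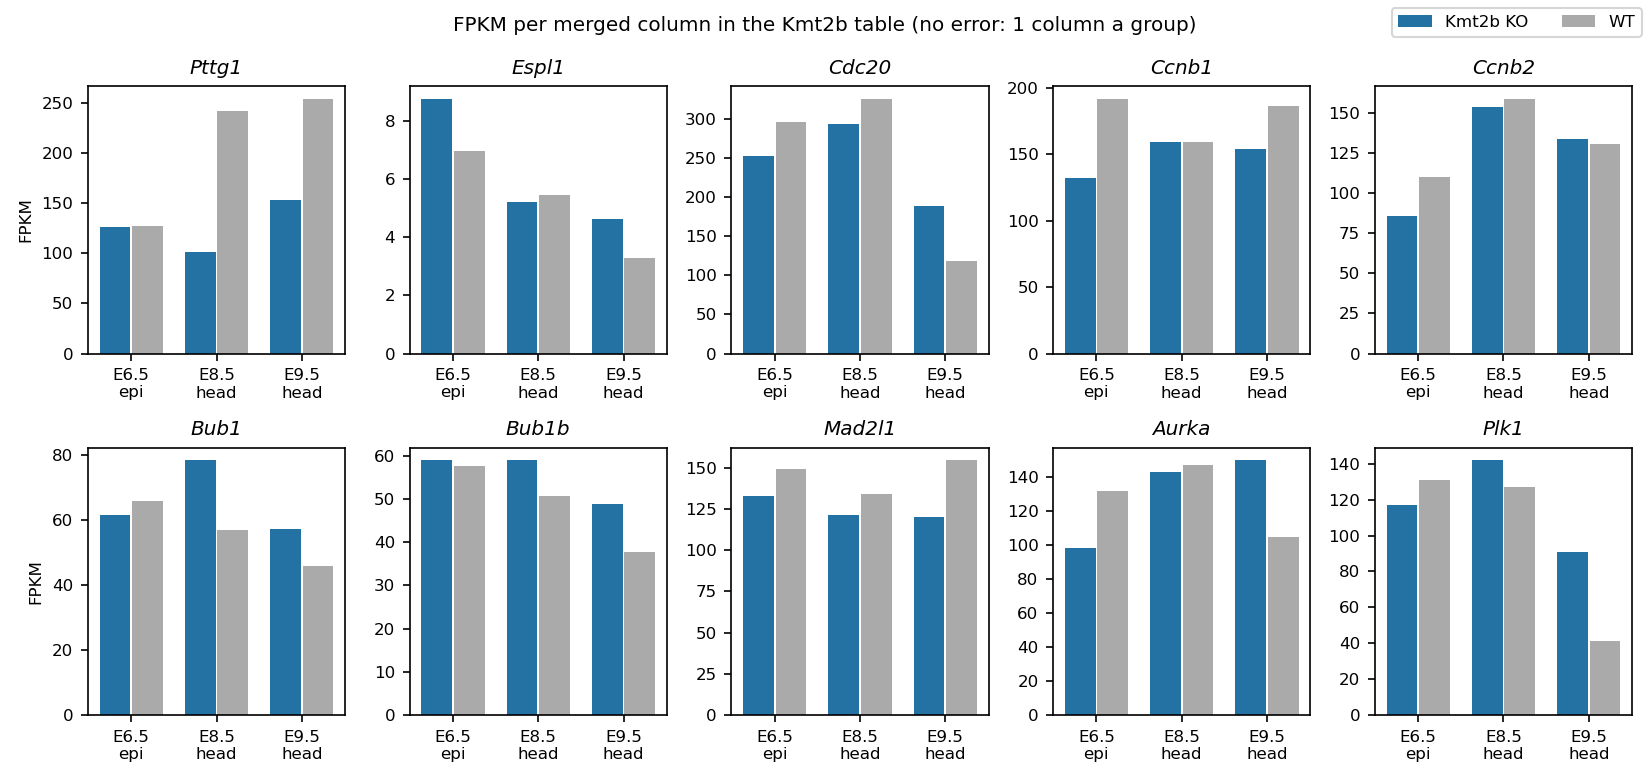
FPKM of the 10 genes in the merged Kmt2b KO (left bar) and WT (right bar) columns at E6.5, E8.5 and E9.5 (x axis; epi, epiblast), with no error because each group is 1 column. Pttg1 has 101 FPKM in KO heads and 242 in WT heads at E8.5, and Plk1 has 91.0 in the KO head and 41.0 in WT heads at E9.5.

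CpG methylation at the promoters was read from bisulfite counts pooled per group in the Kmt2b set, in Kmt2b KO heads, WT heads and Kmt2b KO epiblasts. Each promoter window of 300 bases, 250 before and 50 after the start, was placed in the files by the spacing of its CpGs. Methylated reads made up 0.394% of 1015 reads over the 10 windows in KO heads (Wilson 95% interval 0.153 to 1.01), against 0.906% of 773 reads in WT heads (0.439 to 1.86). In KO epiblasts the level was 3.08% of 455 reads (1.84 to 5.10). Medians over windows of at least 10 CpGs and 10 reads placed the same way were 0.971% in KO heads (11633 windows), 0.725% in WT heads (11657 windows) and 2.0% in KO epiblasts (10812 windows). Genome-wide levels were 67.6% in KO heads, 68.2% in WT heads and 67.8% in KO epiblasts. A read that covers several CpGs is counted at each of them, so the read numbers are sums over CpGs. The intervals treat these counts as independent and may be too narrow. They cover counting error only, since the reads carry no molecular identifiers.

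At Pttg1, 0 of 33 reads were methylated in KO heads, which allows a level of up to 9.09% if the limit is set at 3 reads and of 10.4% by the Wilson 95% interval that is plotted, against 1 of 55 reads in WT heads (1.82%, Wilson 95% interval 0.322 to 9.61). In KO epiblasts 3 of 53 reads were methylated (5.66%, 1.94 to 15.4). The head intervals overlapped, and a difference at this window, which lies inside the annotated span of Pttg1, was not detectable at this depth. Within 1 kb of the window the level at Pttg1 was 23.4% of 77 reads in KO heads and 24.7% of 89 reads in WT heads. The highest level at any of the 10 was at Bub1b in KO epiblasts, 6 of 32 reads (18.8%, 8.89 to 35.3), against 1.20% of 83 reads in KO heads and 1.75% of 57 reads in WT heads. Ccnb2 had only 3 reads in KO epiblasts, summed over 3 CpGs. Methylation of Tet1/2 DKO samples was not analysed here.

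**Figure D5:**
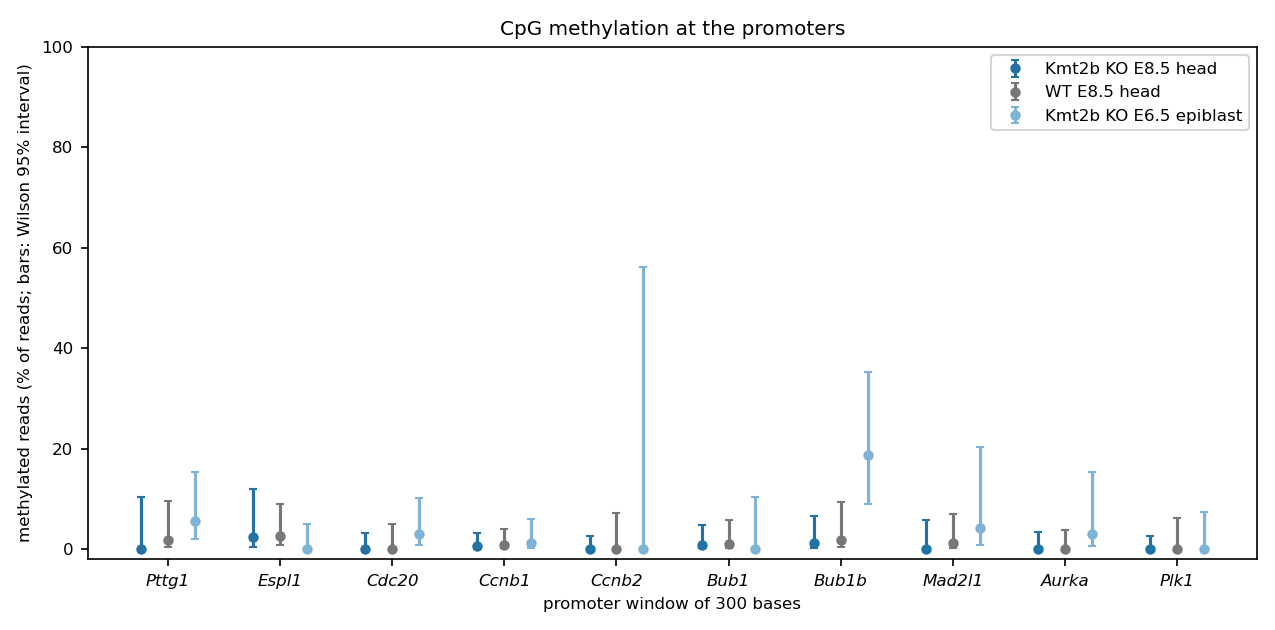
Methylated share of reads (y axis, percent) over CpGs of the 300-base promoter windows of the 10 genes (x axis) in Kmt2b KO heads, WT heads and Kmt2b KO epiblasts, with Wilson 95% intervals. All head values are at or under 2.60%, and Bub1b in KO epiblasts is the highest at 18.8%.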

How the data were processed

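RNA values are the FPKM deposited by the authors, per the submitters' processing notes with mm9 as build and TopHat2 2.0.11 and Cufflinks 2.0.2 named. The 9 Tet1/2 columns share nearly 1 set of values (total FPKM 459560 to 459595), as do the E6.5 and E8.5 Kmt2b columns, but not those of E9.5. FPKM give no counts, so depth is unknown. The deposited methylation files (unit other) hold methylated and unmethylated read counts per CpG, pooled by the authors per the labels (42047812, 45262929 and 29138288 reads in Kmt2b KO heads, WT heads and KO epiblasts, 1.97, 2.12 and 1.37 a CpG, whose numbers limit the precision), with Trim Galore and BS-Seeker2 in the submitters' processing notes.

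Groups came from the sample labels. A gene was kept at 1 FPKM or more in 2 or more columns. Rows named like dates (27 of the Kmt2b table) were dropped, and 2 columns of that table belong to no listed sample and were not used. Log2 of FPKM plus 1 understates differences of low genes. The test was limma (version 3.58.1 in R 4.3.3) with a trended eBayes step, two-sided and with Benjamini-Hochberg adjustment, fitted on DKO epiblasts, WT heads and DKO heads for the head comparison and on all 9 libraries otherwise, and tested on simulated data first. Merged Kmt2b columns were compared by size. Counts of called genes are over the 9 partners, since Pttg1 was chosen on its difference. Members and gene lists were chosen with earlier results of these data known. Genes named from lists were up to 4 per list and comparison, those with the smallest p that passed or, without a test, the largest differences that reached 2-fold.

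Promoter windows come from RefSeq (GRCm38.p6), and the CpG files are on mm9. No coordinates were converted: each window matched 1 place by the distances between its CpGs. Reads were counted at each CpG they cover and summed over all CpGs, with Wilson 95% intervals. Alternatives were other pseudocounts, no filter, centring, no trend, fewer or more libraries, a replicate block, each replicate left out, quantile normalization, other WT columns, CpGs with at least 5 reads and a flank of 1 kb. Same-numbered samples are not paired by the labels. Chromatin and contact samples of the 104 in the series were not used here.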

Additional observations from a re-analysis of the deposited data

Results flagged for a closer look

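The 7 results below were taken up because the Tet1/2 DKO difference in heads itself differed from that in epiblasts (limma interaction, adjusted p under 0.05 over 11264 genes), as it did for 26.4% of all genes. The values are head minus epiblast on the log2 scale. Espl1 had −1.07, with DKO differences of −0.46 in heads and 0.62 in epiblasts. Cdc20 had −0.52 (−0.35 in heads, 0.17 in epiblasts). Plk1 had −0.65 (−0.26 in heads, 0.39 in epiblasts). Bub1b had −0.43 (−0.23 in heads, 0.21 in epiblasts), and Aurka −0.40 (−0.21 in heads, 0.19 in epiblasts). Mad2l1 had 0.59 (0.14 in heads, −0.45 in epiblasts), and Ccnb1 0.45 (0.10 in heads, −0.35 in epiblasts). By the match given above, the WT epiblasts came from the Kmt2b sample set and the WT heads from the Tet1/2 set. An effect of the sample set and one of stage therefore cannot be told apart.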

How the results depend on the processing

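In heads 0 of the 9 partners passed in any setting, while the number of all genes called was 47 as reported, 28 to 32 with no filter, no mean trend or the replicate block, 160 with all 9 libraries, 284 with the head libraries alone and 3 to 10 with a head library left out. The log2 difference of Pttg1 ran from −2.59 to −2.38 in heads and from −0.92 to −0.65 in epiblasts over all settings. Ccnb2 in heads reversed to 0.00309 without DKO head replicate 1 (leave-one-out range −0.18 to 0.00309), and Bub1 in epiblasts to −0.00506 with the replicate block and −0.00506 without WT epiblast replicate 3, and to −0.00171 without DKO epiblast replicate 1 (range −0.00506 to 0.14), and the cause was not tested. Aurka in epiblasts passed with no filter (limma adjusted p = 0.0433). The number of partners whose DKO difference differed between stages was 7 as reported, 4 with no mean trend, 5 with the replicate block, and 3 to 7 with a library left out, while that of all genes was 2976 as reported and as low as 1161 with a library left out. In the epiblast 4 to 6 partners passed. With a library left out, 3 to 4 passed in the WT course and 5 to 6 in the DKO course. The replicate block gave 5 partners in the epiblast, 3 in the WT course and 5 in the DKO course. Its numbers pair no samples by the labels, and deviations of same-numbered libraries had correlations of 0.0586 between genotypes in heads, 0.0771 between genotypes in epiblasts, 0.193 between DKO heads and DKO epiblasts and 0.00444 between WT heads and WT epiblasts. Plk1, the only gene at 2-fold in the E9.5 Kmt2b comparison, fell under it after quantile normalization (0 genes). Of all genes, 40 to 589 were at 2-fold at E6.5, 152 to 1152 at E8.5 and 324 to 1708 at E9.5 with pseudocounts of 5 and 0.1. Promoter methylation with CpGs within 1 kb was 5.31% in KO heads, 7.82% in WT heads and 7.82% in KO epiblasts, and with CpGs of at least 5 reads 7.69% in KO epiblasts, where 52 reads remained.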
